A study of Homo sapiens with 6 samples.

Results

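The human liver cancer line HepG2, which keeps much of the hepatocyte programme in culture, gave 6 RNA-seq libraries that were compared here in an arrangement that crosses the labelled groups. The cells of all 6 libraries carried lentivirus-encoded sgRNA against endogenous VEZF1, a zinc finger transcription factor. VEZF1 was then put back as the wild-type form (VEZF1-WT, 3 libraries) or as VEZF1-2A (3 libraries), in which the serines that carry the sugar O-GlcNAc are replaced by alanine. The study's methods describe adenovirus as the means of putting VEZF1 back in hepatoma cells. Whether these cells were 1 clone or a pool is not given in the sources used here, and neither are culture density, passage or day of harvest. Libraries are named by form and replicate number. The first set holds WT-1, WT-3 and 2A-3, and the second set holds WT-2, 2A-1 and 2A-2, which makes 6 libraries of 6 in all.

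The sets were chosen from these counts, as the arrangement of the libraries that gave the most differing genes. They are the labelled groups with WT-2 and 2A-3 exchanged. Differences between the sets are therefore descriptions of how these HepG2 libraries varied, given without a test. They are not described as an effect of VEZF1. Both sets hold both forms but not evenly, with more VEZF1-WT libraries in the first and more VEZF1-2A libraries in the second. A difference between the forms would therefore enter the differences between the sets in part. A gene was called separated when its lowest library in one set lay above its highest library in the other. Its gap is the distance between those libraries on the log2 scale, and its difference is the mean log2 CPM of the first set minus that of the second, where CPM is the count relative to the scaled library total.

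The labelled comparison was the only one tested. Between VEZF1-WT and VEZF1-2A, edgeR (quasi-likelihood, adjusted p under 0.05) called 0 of 19111 genes, or 0%, with 0.9996 as the lowest adjusted p. An unadjusted p under 0.05 was found for 408 genes (2.13%). That is below the share of 0.05 that such a threshold passes with no difference, so the test was conservative here. The 0 calls do not show that the forms were alike. DESeq2 called 3 genes, UBD, OR2I1P and GABBR1, named after their values were seen. These share a locus, and their reads cannot be told apart where their exons overlap. With the replicate number as a block edgeR called 6 genes, those 3 with LCN2, IGFBP1 and CCL20 (adjusted p = 0.0006835, 0.001619 and 0.046). These were also named after their values were seen. The main test left the numbers out, and the labels do not say whether they pair the libraries. VEZF1 itself was at 59.3, 45.6 and 39.98 CPM in WT-1, WT-2 and WT-3, and at 46.2, 48.6 and 38.9 CPM in 2A-1, 2A-2 and 2A-3. The libraries of both forms overlapped, and a transcript count does not tell endogenous VEZF1 from either form put back, so it checks no label.

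Between the sets, 2152 genes (11.3% of 19111) were higher in every library of the first set, 1926 genes (10.1%) were higher in every library of the second, and 15033 overlapped. The differences were small. The median size was 1.15-fold among genes higher in the first set and 1.20-fold among genes higher in the second, against 1.09-fold over all genes. Only 37 of the former and 77 of the latter differed by at least 2-fold. With genes ranked by expression and cut into 5 equal bins, 31.5% of the highest bin were separated, against 12.4% of the lowest. Of the 147 genes that the naming rule gave, 58 share exon positions with another gene, with which their reads may be mixed. Scaled by library size alone, 35.3% of the separated genes were higher in the first set, against 52.8% with the TMM factors used here.

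Proliferating cells duplicate their DNA in S phase and divide it in mitosis, and each step runs on its own set of proteins. Transcripts for replication peak around the start of S phase, under E2F factors. Transcripts for the spindle and for mitotic kinases peak later, through promoter elements read by NF-Y and by the MuvB complex. A culture with more cells in these phases holds more of these mRNAs, and in bulk RNA a larger share of such cells and more RNA per cell cannot be told apart. The hepatocyte programme of HepG2, with its plasma proteins and its sterol and lipid synthesis, varies with confluence and with the medium.

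Promoter sequences of 4 cell cycle genes described below show the letters that mark these classes. TOP2A and CDK1 stand for the G2 and mitosis genes, and MCM3 and MCM7 for the replication genes. Each line gives the 250 bases before the transcription start in RefSeq on GRCh38.p14, 5′ to 3′ on the gene's own strand. The windows are chr17:40417897-40418146 (minus strand) for TOP2A, chr10:60778081-60778330 (plus strand) for CDK1, chr6:52284743-52284992 (minus strand) for MCM3 and chr7:100101398-100101647 (minus strand) for MCM7. Capitals mark CCAAT (the core of an NF-Y site), TTTGAA (the letters of a cell cycle genes homology region) or any of the E2F-like runs TTTCCCGC, TTTCGCGC, TTTGCCGC and TTTGGCGC, on either strand.
TOP2A: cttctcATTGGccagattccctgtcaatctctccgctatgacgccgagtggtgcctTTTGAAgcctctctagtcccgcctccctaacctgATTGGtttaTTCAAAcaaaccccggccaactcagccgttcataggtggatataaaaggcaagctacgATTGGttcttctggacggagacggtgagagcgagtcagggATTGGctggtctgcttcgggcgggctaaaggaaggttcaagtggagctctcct
CDK1: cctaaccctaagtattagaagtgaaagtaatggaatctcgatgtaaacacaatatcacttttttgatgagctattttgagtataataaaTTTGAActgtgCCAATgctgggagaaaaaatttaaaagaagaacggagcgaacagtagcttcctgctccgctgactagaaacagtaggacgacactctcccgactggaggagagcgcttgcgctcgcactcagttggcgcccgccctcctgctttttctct
MCM3: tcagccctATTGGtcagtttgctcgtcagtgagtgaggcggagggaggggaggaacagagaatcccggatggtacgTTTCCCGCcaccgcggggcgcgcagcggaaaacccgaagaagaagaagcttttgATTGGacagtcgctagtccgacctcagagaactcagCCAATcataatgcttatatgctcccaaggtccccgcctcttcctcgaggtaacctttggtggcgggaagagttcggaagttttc
MCM7: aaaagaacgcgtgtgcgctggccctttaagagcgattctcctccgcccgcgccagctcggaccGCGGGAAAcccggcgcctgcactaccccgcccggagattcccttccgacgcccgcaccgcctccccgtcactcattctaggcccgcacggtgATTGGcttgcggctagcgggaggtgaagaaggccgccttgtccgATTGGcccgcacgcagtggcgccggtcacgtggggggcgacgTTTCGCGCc

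TOP2A held 4 CCAAT and 2 TTTGAA matches in its 250 bases, and CDK1 held 1 of each. MCM3 held 3 CCAAT and 1 E2F-like run, and MCM7 held 2 of each. Over windows of 300 bases (250 before to 50 after a start), TTTGAA stood in 57.1% of 77 windows of the G2 and mitosis lists (58 of 67 genes matched) and in 15.2% of all 35116 windows. E2F-like runs stood in 41.8% of 67 windows of the S phase lists (50 of 60 genes matched) and in 3.32% of all windows. One of those lists holds E2F targets by choice, so part of that share was fixed in advance. The G2 and mitosis lists were picked as a class that TTTGAA and CCAAT mark, so their shares are no independent result either. Over expressed protein-coding genes the shares were 10.7% for TTTGAA and 4.76% for E2F-like runs. They were 14.3% and 8.28% for those higher in the first set, and 9.12% and 3.36% for those higher in the second. CCAAT stood in 66.2% of the G2 and mitosis windows and 53.7% of the S phase windows, against 34.6% of all. Matches were counted on both strands and may overlap, and a match is a description of letters, not a bound site.

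The 6 libraries did not form a pair of even clusters. On the first principal component of log2 CPM, with 34.0% of the variance, WT-3 and 2A-3 lay at 21.7 and 34.3. WT-2, 2A-1 and 2A-2 lay at -18.3, -21.2 and -12.8. WT-1, although of the first set, lay at -3.70, between them. Pairwise chi-square values per degree of freedom, a measure of how far the counts of a pair of libraries differ beyond counting error, were 4.30 for WT-3 against 2A-3 and 3.27 for WT-2 against 2A-1. WT-1 gave 6.93 against WT-2, 7.02 against 2A-1 and 11.2 against 2A-2, but 19.9 against WT-3 and 17.0 against 2A-3. This measure grows with depth, and WT-3 was the deepest library. Most of the smaller counts were even numbers, so counting error itself may be larger than the measure assumes. The values are therefore read only against each other. By correlation of log2 CPM, WT-1 was as close to WT-3 (0.99208) as to WT-2 (0.99203) and 2A-2 (0.99192), and further from 2A-1 (0.99102) and 2A-3 (0.98979). WT-1 thus lay between the others and not clearly with either set. WT-3 and 2A-3 share the replicate number 3, and the labels do not say whether that number marks a shared day, passage or batch.

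**Figure D1:**
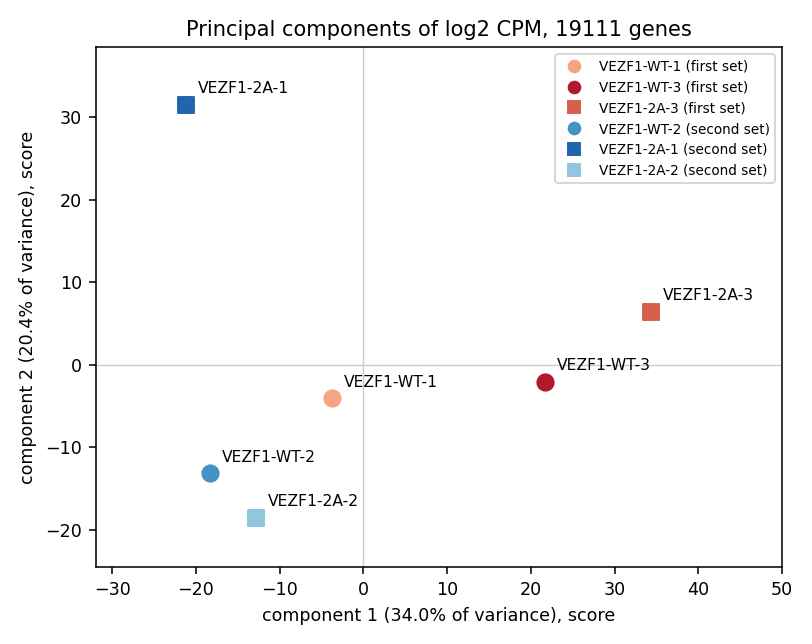
Scores of the 6 libraries on the first (x axis, 34.0% of variance) and second (y axis, 20.4%) principal components of log2 CPM over 19111 genes, with circles for VEZF1-WT, squares for VEZF1-2A, red shades for the first set and blue shades for the second. WT-3 and 2A-3 stand at the right at 21.7 and 34.3, and WT-1 lies between them and the second set at -3.70.

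Where WT-1 stood depended on the gene group. Its place was measured as its distance from the second set's mean divided by that of the mean of WT-3 and 2A-3, so that 0 is the second set and 1 is the pair, for genes in which the pair differed from the second set by at least 0.2 on the log2 scale. The median place was 0.367 over 7198 such genes. It was 0.935 over 80 genes of the 6 cell cycle lists. It was 0.420 over 19 genes of cholesterol synthesis and uptake and 0.138 over 18 plasma protein genes. WT-1 thus lay with WT-3 and 2A-3 for the cell cycle, partway for sterol synthesis, and close to the second set for secreted liver proteins. These places are descriptions, since the sets were chosen from the same values.

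**Figure D2:**
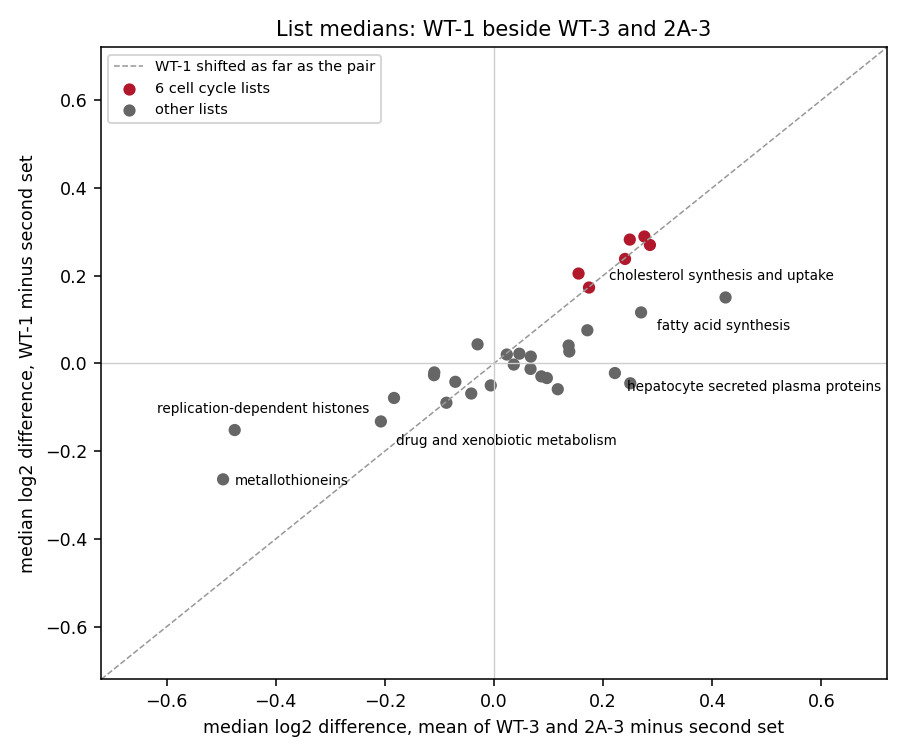
Median log2 difference from the second set for each gene list, in the mean of WT-3 and 2A-3 (x axis) and in WT-1 (y axis), with 1 point per list. The 6 cell cycle lists (red) lie near the dashed line of equal shift, with WT-1 medians from 0.17 to 0.29, while cholesterol synthesis and uptake stands at 0.42 in the pair and 0.15 in WT-1.

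Technical values that differed between the sets are given here once. TMM factors were 0.977 to 0.999 in the first set and 1.011 to 1.015 in the second, long noncoding genes took 2.98% to 3.06% against 3.10% to 3.11% of the counts, and 15157 to 15205 against 15233 to 15254 genes reached 1 CPM. The mean GC content of the counts was 48.08% to 48.15% in the first set and 48.16% to 48.23% in the second. Total counts overlapped, at 33966492 to 57199396 in the first set and 28756765 to 39565464 in the second, and so did the mitochondrial share, at 7.94% to 8.54% and 8.03% to 8.55%. Their part in the differences was not tested. All 12 hepatocyte markers were expressed in both sets, while of the stromal, endothelial and leukocyte markers 9 of 24 passed the filter on low counts. LUM and EMCN were at 0 in all 6 libraries. The summed stromal markers lay at 2.05 to 3.45 CPM in the first set and 1.96 to 3.03 CPM in the second, the endothelial markers at 2.27 to 3.69 and 2.86 to 4.40 CPM, and the leukocyte markers at 669 to 766 and 668 to 751 CPM. Of these markers only CD68, a lysosomal protein also made outside leukocytes, was separated, at 112 to 145 CPM in the first set and 163 to 185 CPM in the second.

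Genes of the cell cycle were higher in the first set. Of 127 genes in 6 lists (origin licensing, the replication fork, nucleotide supply and E2F targets, G2 and mitosis regulators, the spindle and kinetochore, and chromatin condensation with proliferation antigens), 96 were higher in every library of the first set, 1 was higher in every library of the second and 30 overlapped. Over all genes 11.3% and 10.1% were separated in those directions. The median difference over the 127 genes was 0.25 on the log2 scale (1.19-fold), against 0.00 over all genes. The list score, the mean over members of log2 CPM minus each gene's mean over the 6 libraries, was 0.12, 0.08 and 0.13 in WT-1, WT-3 and 2A-3, and -0.12, -0.09 and -0.13 in WT-2, 2A-1 and 2A-2. Every library of the first set thus lay above every library of the second. Without both libraries numbered 3, the median was 0.25 with only WT-1 left in the first set. Exon positions shared with another gene were found for 55 of the 127, and the median over the 72 others was 0.26.

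The genes that load the replicative helicase onto origins, and start it, opened this group. Of 18, 12 were higher in the first set and 0 in the second, with a median difference of 0.24. MCM3, a subunit of the helicase, was at 438, 439 and 450.3 CPM in the first set and at 348, 383 and 383 CPM in the second. The groups did not overlap, and the first set was 1.19-fold higher. MCM7 was at 140.4, 135 and 137 CPM against 110.2, 117 and 117 CPM, and it shares exon positions with AP4M1. MCM2 was 1.22-fold higher and did not overlap either. CDT1, which brings the helicase to the origin, was at 16.6, 14.9 and 15.4 CPM against 11.5, 10.9 and 13.1 CPM, or 1.33-fold higher. GINS3, a subunit of the active helicase, was the only member of the list with a difference below 0, at -0.12, and its sets overlapped.

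At the replication fork, 16 of 22 genes were higher in the first set and 0 in the second, with a median difference of 0.20. LIG1, the ligase that joins Okazaki fragments, was at 86.0, 86.6 and 87.4 CPM in the first set and at 68.9, 71.4 and 75.5 CPM in the second, with exon positions shared with AC011466.3. UHRF1, which helps copy DNA methylation after replication, was at 105, 108 and 111 CPM against 88.1, 92.8 and 87.0 CPM. Both genes were about as far apart, 1.21-fold, with no overlap. PCNA, the sliding clamp, differed by only 1.08-fold. Its values of 84.7, 88.6 and 84.0 CPM in the first set came close to the 83.4 CPM of 2A-1, which was higher than WT-2 and 2A-2 at 76.2 and 78.5 CPM.

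Nucleotide supply and E2F targets gave 11 genes of 20 higher in the first set and 1, E2F2, higher in the second. TK1, thymidine kinase of S phase, was at 23.1, 22.7 and 24.4 CPM against 17.9, 18.8 and 20.1 CPM. E2F1, itself a target of the E2F factors, was at 9.17, 9.49 and 10.6 CPM in the first set against 8.03, 7.0 and 7.22 CPM in the second, 1.31-fold higher. E2F2 was low, at 1.39 to 1.76 CPM against 1.82 to 1.92 CPM. RRM2, the regulated subunit of ribonucleotide reductase, overlapped, since WT-3 at 104 CPM lay below 2A-1 at 105 CPM.

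Among G2 and mitosis regulators, 22 of 25 genes were higher in the first set and 0 in the second, with a median difference of 0.28. CCNB1, the cyclin that drives entry into mitosis, was at 116, 118 and 121 CPM in the first set and at 93.0, 98.0 and 98.1 CPM in the second. Its partner CDK1 was at 37.5, 41.7 and 46.5 CPM against 32.8, 30.7 and 32.2 CPM. PTTG1, the securin that holds sister chromatids until anaphase, was at 15.0, 15.3 and 15.3 CPM against 10.98, 11.7 and 12.3 CPM. None of these 3 overlapped, and they were 1.23-fold, 1.31-fold and 1.31-fold higher. MAD2L1, of the spindle checkpoint, was held most tightly within each set, at 26.2 to 26.5 CPM against 21.4 to 21.6 CPM. The members that overlapped were CDC25B, BUB3 and UBE2C.

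For the spindle, kinetochore and cytokinesis, 20 of 26 genes were higher in the first set and 0 in the second, and all 26 differences were above 0. NUSAP1, which binds spindle microtubules, was at 55.2, 54.1 and 60.0 CPM against 42.5, 44.4 and 43.7 CPM, with exon positions shared with AC087721.2. NDC80, of the outer kinetochore, was at 31.9, 32.0 and 32.6 CPM against 25.2, 26.3 and 26.6 CPM. CENPE, a kinetochore motor, was 1.29-fold higher and ANLN, a scaffold of the cleavage furrow, was 1.26-fold higher, neither with an overlap.

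Chromatin condensation and proliferation antigens had the highest share, with 15 of 16 genes higher in the first set. TOP2A, the topoisomerase that untangles sister chromatids, was at 565, 551 and 600.0 CPM in the first set and at 426, 449 and 423 CPM in the second. It was 1.32-fold higher, with a gap of 0.30. MKI67, the proliferation antigen Ki-67, was at 598, 546 and 578 CPM against 464, 479 and 454 CPM, or 1.23-fold higher. HMGB2, a chromatin protein of dividing cells, was at 335, 321 and 370 CPM against 237, 238 and 267 CPM, the largest difference of the 127 genes at 0.47. TUBB, a tubulin used throughout the cycle, was the member that overlapped, at 728 to 791 CPM against 775 to 785 CPM.

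Genes that set the pace before S phase did not move as 1 group. Of 18 G1 cyclins and cell cycle inhibitors, 4 were higher in the first set (RB1, CDKN1B, CDKN2C and CDKN2D) and 3 in the second (CCND1, CDKN2B and KLF6). Over all genes the shares were 11.3% and 10.1%. CCND1, the cyclin induced by growth signals, was at 404, 376 and 385 CPM in the first set and at 442, 442 and 444 CPM in the second. CDKN2B, an inhibitor of the cyclin D kinases, was at 50.4, 46.6 and 41.6 CPM against 55.7, 58.5 and 53.1 CPM. Both were lower in the first set, by a log2 difference of -0.19 and -0.28, in every library.

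Protein synthesis and respiration were close to level between the sets. The median difference was 0.04 over 42 cytosolic ribosomal protein genes (7 higher in the first set, 1 in the second), 0.02 over 46 nuclear-encoded respiratory chain genes (6 and 2), 0.05 over 13 mitochondrially encoded genes (1 and 0) and -0.01 over 21 MYC and nucleolar genes (5 and 1), and the list scores of the sets overlapped in each. Chromatin regulators (23 genes, 3 and 0) and heat shock proteins (14 genes, 5 and 0) had medians of 0.02 and 0.05. Over all genes, 11.3% were higher in the first set and 10.1% in the second. Of the MYC and nucleolar genes that were separated, ODC1, the first enzyme of polyamine synthesis, was the one higher in the second set, at 252, 248 and 249.6 CPM against 236, 209.6 and 207 CPM. FBL, which methylates ribosomal RNA, was higher in the first set, at 154, 160.2 and 166 CPM in the first set against 127, 134 and 131 CPM in the second.

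**Figure D3:**
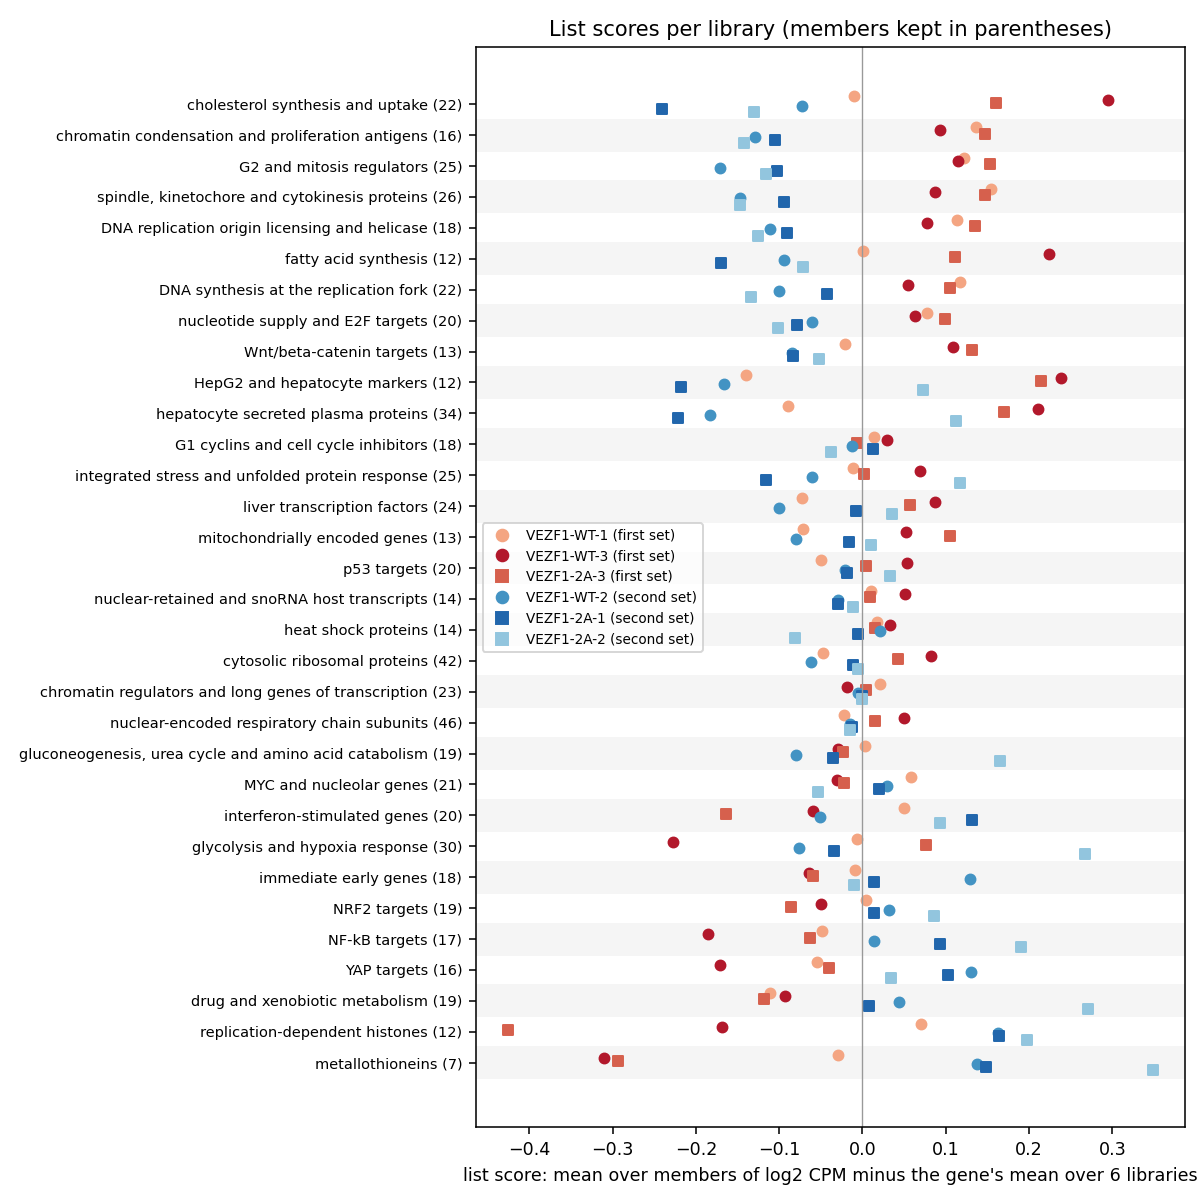
Score of each gene list in each library (x axis, mean over members of log2 CPM minus the gene's mean over 6 libraries), lists ordered by their median difference between the sets, circles for VEZF1-WT, squares for VEZF1-2A, red shades for the first set and blue shades for the second. In the 6 cell cycle lists the red and blue points lie apart. Cholesterol synthesis and uptake spreads more widely, from -0.24 in 2A-1 to 0.29 in WT-3.

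The widest gaps were looked for among protein-coding genes with a mean of at least 5 CPM. The 12 largest in the first set's favour belonged to FAM72B, SLC6A12, SLC38A11, SGO1, TOP2A, ARHGAP19, SKA3, PTTG1, SKP2, NUSAP1, MAD2L1 and CDKN3, of which TOP2A, PTTG1, NUSAP1, MAD2L1 and CDKN3 are members of the cell cycle lists. SGO1, which guards cohesion at centromeres, was at 20.6, 21.2 and 20.6 CPM against 15.9, 14.96 and 16.7 CPM, and shares exon positions with SGO1-AS1. SKP2, the ubiquitin ligase subunit that removes the inhibitor p27, was at 11.4, 11.4 and 12.1 CPM against 9.32, 9.196 and 8.74 CPM. FAM72B was at 9.36, 7.06 and 8.96 CPM against 5.25, 5.49 and 4.87 CPM. It has near-identical copies in the genome, so its reads may be split among them. SLC6A12, a betaine and GABA transporter, was at 5.87, 7.54 and 6.52 CPM against 4.38, 4.67 and 4.57 CPM.

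**Figure D4:**
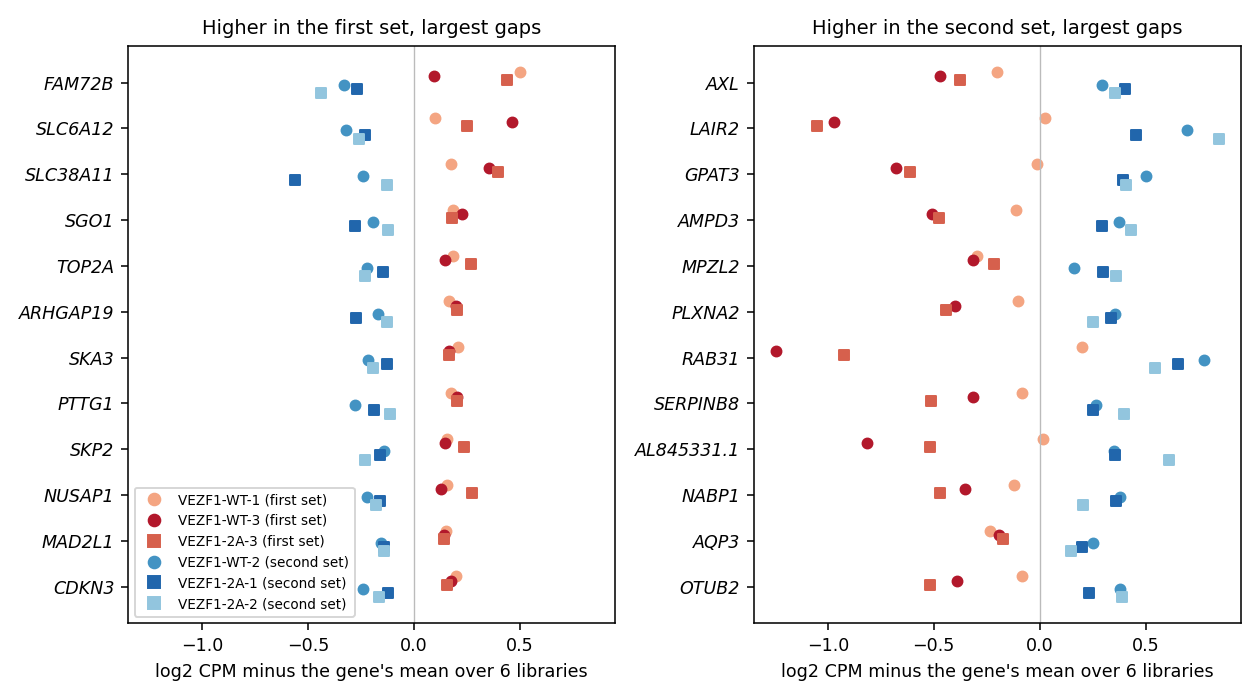
Level of the 12 protein-coding genes with the largest gap in each direction (x axis, log2 CPM minus the gene's mean over 6 libraries), circles for VEZF1-WT, squares for VEZF1-2A, red shades for the first set and blue shades for the second. In most genes higher in the first set WT-1 lies among or beside WT-3 and 2A-3, whereas for RAB31, LAIR2 and GPAT3 WT-1 lies between WT-3 with 2A-3 and the second set.

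The genes that led in the second set were AXL, LAIR2, GPAT3, AMPD3, MPZL2, PLXNA2, RAB31, SERPINB8, AL845331.1, NABP1, AQP3 and OTUB2. AXL, a receptor tyrosine kinase, was at 10.9, 11.8 and 11.4 CPM in WT-2, 2A-1 and 2A-2, and at 7.77, 6.44 and 6.88 CPM in WT-1, WT-3 and 2A-3. The second set was 1.62-fold higher, with exon positions shared with AC011510.1. GPAT3, which begins glycerolipid synthesis, was at 25.2, 23.4 and 23.6 CPM against 17.6, 11.1 and 11.6 CPM. RAB31, a small GTPase of vesicle traffic, was at 12.2, 11.3 and 10.4 CPM against 8.22, 3.02 and 3.77 CPM, or 2.47-fold higher in the second set. In GPAT3 and RAB31, WT-1 was the highest of the first set and stood well above WT-3 and 2A-3. Without both libraries numbered 3, the log2 difference was -0.46 for RAB31 in place of -1.30, -0.63 for LAIR2 in place of -1.32 and -0.45 for GPAT3 in place of -0.87, while it was 0.84 for FAM72B in place of 0.69.

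Signalling genes on this side of the comparison included immediate early genes, which respond to growth factors and stress within minutes. Of 18, 5 were higher in the second set (27.8%, against 10.1% of all genes) and 1 in the first, beside a median of -0.05. DUSP5, a phosphatase of ERK, was at 15.1, 15.2 and 13.4 CPM in the second set and at 11.1, 6.65 and 7.33 CPM in the first. FOSL1, an AP-1 subunit, was at 48.4, 46.9 and 43.0 CPM against 38.7, 31.4 and 31.9 CPM, and JUN at 127, 125 and 119 CPM against 109.1, 99.9 and 99.8 CPM. For these 3 genes the libraries numbered 3 were lowest and WT-1 was the nearest to the second set. Of 16 targets of YAP, the coactivator restrained by cell contact, 4 were higher in the second set and 0 in the first, and the scores did not overlap. ANKRD1 was at 496, 437 and 397 CPM against 385, 296 and 332 CPM. Of 17 NF-kB targets, 2 were higher in the second set and 1 in the first, with a median of -0.11 and scores apart, a share of the list close to the 10.1% of all genes.

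Most adhesion and matrix genes overlapped between the sets. Of 20 epithelial and mesenchymal markers, 4 were higher in the second set, 0 in the first and 16 overlapped. The median was small, at -0.03, although the list scores of the sets lay apart. Over all genes, 10.1% were higher in the second set. FN1, fibronectin, was at 6758, 7031 and 6987 CPM against 6378, 5966 and 6019 CPM. SNAI2, a repressor of epithelial genes, was near the detection limit, at 0.76 to 1.20 CPM against 0.28 to 0.55 CPM. CDH1, E-cadherin, was also higher in the second set, so the markers separated there were of both kinds.

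Cholesterol synthesis was the group with the largest positive median. Hepatocytes make sterols through a chain of enzymes under SREBP2. Of 22 genes, 18 were higher in the first set (81.8%, against 11.3% of all genes). In the second set 0 were higher, against 10.1% of all genes, and the median difference was 0.32 (1.25-fold). The score was -0.01 in WT-1, 0.29 in WT-3 and 0.16 in 2A-3, and -0.07, -0.24 and -0.13 in WT-2, 2A-1 and 2A-2. The sets did not overlap, but WT-1 was nearer to WT-2 than to WT-3 or 2A-3. Without both libraries numbered 3 the median was 0.15, and without WT-1 it was 0.42. Exon positions are shared by 13 of the 22 genes.

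Within the pathway, HMGCS1, which makes HMG-CoA for the pathway, was at 300 CPM in WT-1, 394 in WT-3 and 327 in 2A-3, and at 291, 231 and 265 CPM in WT-2, 2A-1 and 2A-2. FDPS, which makes farnesyl diphosphate, was at 127, 149 and 138 CPM against 111, 106 and 117 CPM. In both, WT-1 was lowest of the first set, and 2A-1 was lowest of all 6. FDPS shares exon positions with RUSC1-AS1. SREBF2, which encodes SREBP2, overlapped between the sets. Fatty acid synthesis followed, with 7 of 12 genes higher in the first set (58.3%, against 11.3% of all genes) and 0 in the second. Its median was 0.23, and 0.11 without both libraries numbered 3. FASN, fatty acid synthase, was at 362, 426 and 365 CPM against 327, 309 and 307 CPM.

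Secreted plasma proteins, the main product of hepatocytes, showed a different order of the libraries. Of 34 genes, 4 were higher in the first set (11.8%, close to the 11.3% of all genes) and 0 in the second. The median was 0.12, and 33 of the 34 differences were above 0. The score was 0.21 in WT-3, 0.17 in 2A-3 and 0.11 in 2A-2, but -0.09 in WT-1, -0.18 in WT-2 and -0.22 in 2A-1, so the sets overlapped. AFP, a fetal counterpart of albumin, was at 1928, 3643 and 3482 CPM in WT-1, WT-3 and 2A-3, and at 2043, 1763 and 2065 CPM in WT-2, 2A-1 and 2A-2. ALB, albumin, was highest in 2A-2 at 3672 CPM, with 2813 to 3346 CPM in the other libraries. FGB, a chain of fibrinogen, was at 460.1, 804 and 735 CPM against 420.1, 357 and 435 CPM, separated only by the small distance between WT-1 and 2A-2. Without both libraries numbered 3 the list's median was -0.02. Liver transcription factors had 1 of 24 genes separated, NR1I2, the xenobiotic receptor PXR, which was higher in the second set at 15.8 to 19.4 CPM against 13.8 to 15.4 CPM.

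Drug metabolism differed the other way, and 2A-2 led it. Of 19 genes kept, 7 were higher in the second set (36.8%, against 10.1% of all genes). In the first set 0 were higher, against 11.3% of all genes, and the median was -0.20. The score was 0.27 in 2A-2, 0.04 in WT-2 and 0.01 in 2A-1, and -0.11, -0.09 and -0.12 in WT-1, WT-3 and 2A-3. Without 2A-2 the median was -0.07, and over the 9 members with a mean of at least 5 CPM it was 0.00. ABCC2, a canalicular export pump, was the abundant member, at 352, 349 and 362 CPM in the second set against 313, 319 and 295 CPM in the first. UGT1A6 and UGT1A1, which conjugate glucuronic acid, were at 3.20 to 4.67 and 4.29 to 6.50 CPM against 1.35 to 2.09 and 2.16 to 3.20 CPM. These genes share exons, so they count as 1 locus.

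Metallothioneins bind zinc and copper and are induced by metals, glucocorticoids and stress. Of 7 genes in that list, 4 were higher in the second set and 1 in the first, with the most negative median, -0.42. Over all genes the shares were 10.1% and 11.3%. MT2A, the abundant one, was at 560.0 CPM in WT-2, 518 in 2A-1 and 562 in 2A-2, and at 423, 311 and 299 CPM in WT-1, WT-3 and 2A-3, 1.61-fold higher in the second set. MT1E followed at 12.9, 11.7 and 12.2 CPM against 10.2, 8.52 and 8.81 CPM. SLC30A1, the zinc exporter, was the member higher in the first set, at 21.2 to 22.3 CPM against 19.8 to 20.7 CPM. Metallothionein genes are close copies, and reads may be split among them. Without both libraries numbered 3 the median was -0.27.

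Histone genes stood against the other S phase genes. Replication-dependent histone mRNAs end in a stem loop rather than a poly(A) tail, so a poly(A)-primed library holds mainly their polyadenylated forms. Of 12 genes kept, 5 were higher in the second set (41.7%, against 10.1% of all genes). In the first set 0 were higher, against 11.3% of all genes, and the median was -0.32. H1-2, a linker histone, was at 21.5, 21.5 and 18.7 CPM in the second set and at 16.3, 15.2 and 13.9 CPM in the first. H2AC6 was at 27.0, 27.1 and 28.1 CPM against 23.7, 21.0 and 20.6 CPM. Most members were low, with 3 of the 12 reaching a mean of 5 CPM. The score was 0.07 in WT-1 and -0.17 and -0.43 in WT-3 and 2A-3, against 0.16 to 0.20 in the second set, and without both libraries numbered 3 the median was -0.15. WT-1, which stood with WT-3 and 2A-3 for the replication genes, was therefore nearer to the second set for histones.

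Other lists were mixed, and are read beside the 11.3% of all genes higher in the first set and the 10.1% higher in the second. Wnt/beta-catenin targets had 6 of 13 genes higher in the first set and 0 in the second, with a median of 0.15 and scores apart, and DKK1, a secreted inhibitor of Wnt, was at 22.3, 28.5 and 27.1 CPM against 20.7, 20.8 and 19.1 CPM. The integrated stress and unfolded protein response had 8 of 25 genes higher in the first set, among them XBP1 at 527, 585 and 581 CPM against 482, 434 and 472 CPM, and 3 in the second. Of 20 p53 targets 5 were higher in the first set and 4 in the second. BAX, which permeabilises mitochondria, was at 75.6, 74.6 and 84.4 CPM against 63.3, 61.0 and 63.8 CPM. PLK3, with a wider gap, went the other way, at 8.30, 8.48 and 8.26 CPM against 10.7, 11.9 and 10.1 CPM. It shares exon positions with TCTEX1D4. NRF2 targets (2 and 4 of 19), interferon-stimulated genes (0 and 3 of 20), glycolysis and hypoxia genes (0 and 3 of 30), gluconeogenesis, urea cycle and amino acid genes (1 and 5 of 19) and nuclear-retained transcripts (2 and 0 of 14) had medians between -0.08 and 0.05. For glycolysis and hypoxia, the extreme libraries were WT-3 at a score of -0.23 and 2A-2 at 0.27, with 2A-3 at 0.08, so this group varied along another line. TNS1 and GFPT1, which the study followed, overlapped between the sets, at 0.78 to 2.08 against 1.23 to 3.30 CPM and at 139 to 160 against 133 to 143 CPM.

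Chromosome 2 stood apart from the other chromosomes. Among its 796 genes with a mean of at least 5 CPM, the median of log2 CPM minus the gene's mean over the libraries was -0.06 in WT-3 and -0.05 in 2A-3. It was 0.02 in WT-1, 0.03 in WT-2, 0.03 in 2A-1 and 0.01 in 2A-2. In WT-3 and 2A-3 no other of 22 chromosomes had a median below -0.02. When the chromosome was divided into 13 bins of 20 Mb, with 23 to 102 genes each, the median was below 0 in all 13 bins of WT-3 and of 2A-3, and above 0 in all 13 bins of WT-1, WT-2 and 2A-1. In 2A-2 it was below 0 in 5 bins.

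Between the sets the median difference on chromosome 2 was -0.05, against medians of -0.01 to 0.05 on the others, and 67.6% of its genes had a difference below 0, against 45.3% of the 10226 genes elsewhere. Of its 1295 expressed genes 17.2% were higher in the second set and 7.57% in the first, where the next highest share in the second set was 13.7%, on chromosome 18. Without WT-1 the difference on chromosome 2 was -0.08, and without both libraries numbered 3 it was -0.01. DNA copy number was not measured. Genes named above such as AL845331.1, NABP1, FN1, UGT1A6, UGT1A1, TNS1, GFPT1 and SLC38A11 are on this chromosome. With its genes left out, the cell cycle median was 0.25 and 3757 genes were separated.

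Grouped by the labels instead, the cell cycle genes had a smaller median. The median difference of VEZF1-WT minus VEZF1-2A over the 127 genes was 0.05 on the log2 scale. For 3 of them edgeR gave an unadjusted p under 0.05, beside 408 of all 19111 genes (2.13%). After adjustment over all genes 0 passed. The same median within each set was -0.04 in the first set (WT-1 and WT-3 against 2A-3) and -0.03 in the second (WT-2 against 2A-1 and 2A-2). For cholesterol synthesis and uptake the values were 0.15 under the labels, -0.01 within the first set and 0.11 within the second. For NF-kB targets they were -0.13, -0.12 and -0.14. Of these 17 genes, edgeR gave 8 an unadjusted p under 0.05, against 2.13% of all genes, and 0 passed after adjustment. The sets were chosen from these counts to differ, which leaves less variation within them. The first set also holds a single VEZF1-2A library, and the second a single VEZF1-WT library. The values within the sets are therefore descriptions, not an effect of the form adjusted for the set.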

How the data were processed

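The authors deposited 1 table of read counts per gene, as whole numbers without normalization, for 6 HepG2 libraries made with a poly(A)-primed mRNA kit. The aligner, the counter and the strand setting are not given in the sources used here, so genes that share exon positions cannot be told apart. Between 65.7% and 67.5% of the deposited counts from 11 to 100 were even numbers, and 5 broken lines of ANK2 were left out of 59613. Genes were kept by filterByExpr in edgeR 4.0.16 (R 4.3.3) with the labelled groups, which left 19111 of 59608, and libraries were scaled by TMM. Log2 CPM used a prior count of 2, and CPM is printed per library. The labelled comparison was fitted with glmQLFit and glmQLFTest, with Benjamini-Hochberg adjustment. Nothing says that replicates were separate cultures, so its p-values measure the spread between these libraries, which may be technical. The test was tried on simulated counts first.

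The sets, lists and alternatives were chosen with earlier results of these data known. Genes named are the 12 protein-coding genes with the largest gap in each direction (mean of at least 5 CPM), up to 4 separated members of each list by gap, and MKI67, TOP2A, CCNB1, CDK1, PCNA, MCM2, ALB, AFP, VEZF1, TNS1 and GFPT1. Other members were named after their values were seen, and some genes that the rule gave are not reported here. Of 738 listed symbols 736 were matched, 22 by an older symbol. Alternatives were other scalings and filters, another prior count, down-sampling, removal of length and GC trends, overlapping genes or single libraries left out, the replicate number as a block and DESeq2 1.42.0. Promoter windows were from RefSeq on GRCh38.p14. Figures were drawn with matplotlib 3.10.9.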

Additional observations from a re-analysis of the deposited data

How the results depend on the processing

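The median of the 6 cell cycle lists stayed between 0.21 and 0.26 in all 17 alternatives, and the lowest value, 0.2132, came from scaling by library size alone. That scaling moved the median over all genes by -0.0362 and gave -0.0833 for chromosome 2, so it moved little against other genes. Leaving out overlapping genes gave 1981 separated genes (1049 and 932), out of fewer tested. Leaving out 1 library at a time gave 5461 to 7669 separated genes (2749 to 3785 higher in the first set, 2604 to 3884 in the second), since fewer libraries overlap less, 0.2288 to 0.2582 for the cell cycle, 0.2251 to 0.4177 for cholesterol synthesis and uptake, -0.2413 to -0.0651 for drug metabolism, and -0.0834 to -0.0372 for chromosome 2. Drug metabolism turned to 0.0008 with a mean of at least 5 CPM, which left 9 of its genes.

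Alternatives added after the data were seen left out both libraries numbered 3, which gave 9632 separated genes (4764 and 4868), 0.1486 for cholesterol synthesis and uptake, -0.2658 for metallothioneins and -0.0119 for chromosome 2, or the genes of chromosome 2. The cause of these shifts was not tested. Of the values for the main results, 153 of 179 stayed close, 25 moved and 1, drug metabolism, was counted as turned in sign. For lists, a turned sign was counted only where the scores of the sets lay apart. The plasma protein scores overlapped, so their median counted as close although it went from 0.1189 to -0.0236 without both libraries numbered 3. Of those for the other lists and percents, 432 of 475 stayed close, as did 535 of 559 for the few single genes followed. For medians and single genes, close means a move smaller than the spread within the sets. Counts were judged by their ratio and percents by their distance in points.

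In the labelled comparison, 16 genes were called with no filter, 6 with the replicate block and 3 by DESeq2, against 0. Deviations from the mean of each form were correlated at 0.079, 0.144 and 0.362 between libraries with the same number. Within a form the deviations of a gene sum to 0, so these 3 values depend on each other. Correlations between libraries with unlike numbers are not given here, so the values do not decide whether the numbers pair libraries. The labels do not say whether the numbers pair the libraries, and the main test left them out. With the number as a block, edgeR gave 825 genes an unadjusted p under 0.05, against 408 without it. With 3 libraries a set and no test, these values are descriptions of these libraries. Down-sampling every library to 28756765 counts left 3906 separated genes, and low genes are the least certain.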
